A study of Mus musculus with 12 samples.

Results

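The 8 transcription factors Tbx21, Eomes, Hlx, Runx1, Runx3, Gata3, Rora and Ahr, which direct or shape the Th1, Th2 and Th17 fates of CD4+ T cells, were followed across all libraries of the series. They were chosen by name from the 41457 genes of each deposited table, and all 8 had enough reads to be tested in every fit. Poly(A) RNA was sequenced from CD4+ T cells of the spleen and lymph nodes of C57BL/6 mice. NFATc1/ΔS mice carry NFATc1 that cannot be joined to the small protein SUMO, and wild-type (WT) mice carry normal NFATc1. All cells were activated through CD3 and CD28. Th1 cultures received IL-12 and an antibody against IL-4, Th2 cultures IL-4 and an antibody against interferon-γ, and Th17 cultures TGFβ, IL-6 and both antibodies. The Th17 cultures were kept in IMDM with less anti-CD3 and the others in RPMI, so Th17 fate and medium cannot be told apart here. There was 1 library for each of the 12 combinations of culture, genotype (NFATc1/ΔS, WT) and day (3.5, 2.5), so 4 libraries per culture, 6 pairs for genotype and 6 pairs for day. Whether each library is its own animal or culture is not stated, nor are age and sex, so the spread behind each p-value is that among the 12 libraries and may be technical.

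T cell fates are set by cytokines that act through STAT proteins and by the transcription factors these induce. Tbx21 encodes T-bet, which directs Th1 cells and activates Ifng, and Eomes encodes a related T-box factor of cytotoxic and memory T cells. Hlx encodes a homeobox factor that acts with T-bet on Ifng in mouse Th1 cells. Runx3 and Runx1 are Runt-domain factors that pair with the CBFβ subunit; Runx3 helps T-bet activate Ifng and silence Il4. Gata3 directs Th2 cells and opens the Il4, Il5 and Il13 locus. Rora encodes the nuclear receptor RORα, which promotes Th17 cells, and Ahr encodes the aryl hydrocarbon receptor, a ligand-activated factor that promotes IL-22 in Th17 cells. NFATc1, the factor altered by the mutation, is a calcium-dependent partner of such factors at cytokine genes.

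Because the mutation lies in an NFAT protein, the 250 bases before the annotated starts were searched for the NFAT core GGAAA and, since Runx genes are known to have Runt sites in their promoters, for the RUNX core TGTGGT, each on both strands. RefSeq promoters on GRCm38.p6 were given for 7 of the 8 members, with 2 starts each for Runx1 and Runx3. Ahr had no entry. The windows are shown for Tbx21 and Gata3, the members that mark Th1 and Th2 cultures, and for Rora and the upstream start of Runx3, which changed with day; capitals mark the NFAT or RUNX core on either strand. The Tbx21 window is chr11:97115332-97115581 (minus strand), that of Gata3 chr2:9878601-9878850 (minus strand), that of Rora chr9:68653536-68653785 (plus strand) and that of Runx3 chr4:135120395-135120644 (plus strand).
Tbx21 promoter: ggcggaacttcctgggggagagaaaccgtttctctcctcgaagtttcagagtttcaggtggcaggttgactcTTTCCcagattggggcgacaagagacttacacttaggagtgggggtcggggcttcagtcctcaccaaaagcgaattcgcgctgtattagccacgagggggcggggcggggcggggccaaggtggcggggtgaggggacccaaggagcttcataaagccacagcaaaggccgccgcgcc
Gata3 promoter: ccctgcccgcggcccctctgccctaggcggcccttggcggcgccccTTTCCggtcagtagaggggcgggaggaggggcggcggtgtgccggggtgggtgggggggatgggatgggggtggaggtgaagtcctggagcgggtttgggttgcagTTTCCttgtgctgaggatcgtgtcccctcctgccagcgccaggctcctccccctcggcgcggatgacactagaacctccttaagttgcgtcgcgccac
Rora promoter: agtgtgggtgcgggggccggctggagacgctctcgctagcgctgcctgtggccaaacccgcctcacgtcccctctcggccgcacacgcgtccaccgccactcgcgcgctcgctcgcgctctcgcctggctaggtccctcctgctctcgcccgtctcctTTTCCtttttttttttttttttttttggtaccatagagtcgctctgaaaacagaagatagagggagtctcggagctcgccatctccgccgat
Runx3 upstream promoter: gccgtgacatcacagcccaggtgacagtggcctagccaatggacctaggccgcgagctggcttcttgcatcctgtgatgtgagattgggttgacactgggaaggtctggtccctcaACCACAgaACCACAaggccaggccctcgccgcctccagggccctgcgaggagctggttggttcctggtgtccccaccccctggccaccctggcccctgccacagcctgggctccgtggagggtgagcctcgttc

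The NFAT core occurred once before Tbx21 and once before Rora. Its first bases lay 178 and 92 bases before those starts. Before Gata3 it occurred at 2 places, 204 and 98 bases from the RefSeq start. That start lies inside the gene span of the deposited tables, which begins further upstream. The Hlx window and both Runx1 windows held 2 cores each, and the Eomes window and both Runx3 windows held none. Of 27025 mouse promoters, 55.6% held the NFAT core in a window of this length. The RUNX core was found at 2 neighbouring places before the upstream Runx3 start, 134 and 126 bases from it, and in no other member window; 14.2% of promoters held it. The T-box core GGTGTGA, held by 3.31% of promoters, occurred in none of the member windows, and GATA, held by 54.1%, occurred before Rora, Eomes and the downstream Runx1 start.

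Libraries held between 13417121 and 17774400 reads on genes, of which 78.9 to 81.4% mapped uniquely. CD4 T cell transcripts were present throughout, with Cd4 at 363 to 530.2 TPM in Th1, 317 to 342 TPM in Th2 and 518 to 574 TPM in Th17 libraries. Ifng, the Th1 cytokine, had 92.2 to 429 TPM in Th1 libraries, against at most 10.5 TPM elsewhere. Il4, the Th2 cytokine, had 25.0 to 60.2 TPM in Th2 libraries, against at most 19.1 TPM elsewhere, and Il17f, a Th17 cytokine, had 12.0 to 84.6 TPM in Th17 libraries, against at most 1.21 TPM elsewhere. The 2 Th1 day 2.5 libraries stood apart: that of WT mice correlated across genes at 0.954 to 0.956 with the other Th1 libraries but at up to 0.978 with Th17 libraries, and that of NFATc1/ΔS mice at 0.927 to 0.955 with the other Th1 libraries. The labels do not tell whether they were handled apart or exchanged, and what the Th1 values at day 2.5, and so the day and genotype values of Th1, stand for depends on it; this was not tested. The calls between cultures are given with and without both. Without both, Th1 is represented by its day 3.5 libraries alone. The 9 B cell markers summed to 4.32 to 8.91 CPM in Th1, 37.4 to 50.7 CPM in Th2 and 14.9 to 32.2 CPM in Th17 libraries, with Cr2 at 0 in every Th1 library. The 9 CD8 T and NK cell markers summed to 56.4 to 158 CPM in Th1, 83.6 to 243 CPM in Th2 and 39.8 to 72.6 CPM in Th17 libraries. Of the Th2 sums Gzma alone made up 49.9 to 183 CPM. The 6 T cell markers summed to 2192 to 2891 CPM over all libraries. Markers of 4 further cell types are given with the processing. The part of any of these cells in the results below was not tested.

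Tbx21 (ENSMUSG00000001444, chromosome 11, 97098071 to 97115331, minus strand) was the member that most clearly marked Th1 cultures. Levels are given as TPM, transcript abundance per library scaled by exon length, computed here from the deposited exon reads. In Th1 NFATc1/ΔS libraries Tbx21 had 43.8 TPM at day 3.5 and 77.7 TPM at day 2.5, and in Th1 WT libraries 38.3 TPM at day 3.5 and 53.1 TPM at day 2.5. In Th2 libraries it had 2.84 and 1.85 TPM (NFATc1/ΔS, day 3.5 and day 2.5) and 2.54 and 2.49 TPM (WT, day 3.5 and day 2.5). The 4 Th17 libraries had 5.19 and 4.07 TPM (NFATc1/ΔS, day 3.5 and day 2.5) and 3.21 and 4.33 TPM (WT, day 3.5 and day 2.5). No Th1 library overlapped any Th2 or Th17 library, and the Th2 and Th17 libraries lay close together: in TPM the lowest Th17 library was above the highest Th2 library, but in CPM, reads per library size with TMM factors, they overlapped, with Th2 at 2.07 to 2.596 CPM and Th17 at 2.52 to 4.18 CPM. The means were 53.2 ± 17.4 TPM in Th1, 2.43 ± 0.419 TPM in Th2 and 4.20 ± 0.815 TPM in Th17 (SD, n = 4 each). Under the quasi-likelihood test of edgeR, with Benjamini-Hochberg adjusted p over 12797 genes, Tbx21 in Th1 exceeded Th2 by 4.21 ± 0.23 on the log2 scale (standard error, adjusted p = 1.9e-05) and exceeded Th17 by 3.64 ± 0.22 (adjusted p = 0.000656). Its p was the lowest of all 12797 genes in the comparison of Th1 with Th17. In bulk libraries fewer cells of a type and less RNA per cell cannot be told apart.

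Between Th2 and Th17 the Tbx21 difference was -0.57 ± 0.22 and did not pass over all 12 libraries (edgeR adjusted p = 0.144). It passed without both Th1 day 2.5 libraries, which enter the shared estimate of spread (-0.59, edgeR adjusted p = 0.0152), and also without the Th1 NFATc1/ΔS day 2.5 library alone (-0.59, edgeR adjusted p = 0.0341). Th2 libraries held 28 to 36 Tbx21 reads and Th17 libraries 36 to 81 reads, so these low levels rest on few reads.

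Eomes (ENSMUSG00000032446, chromosome 9, 118478212 to 118486132, plus strand) was also higher in Th1 cultures, at a lower level and with a wide spread. Its Th1 levels were 2.95 and 14.0 TPM in NFATc1/ΔS libraries (day 3.5 and day 2.5) and 5.58 and 2.38 TPM in WT libraries (day 3.5 and day 2.5). The library labelled Th1 NFATc1/ΔS day 2.5, with 300 Eomes reads, thus held far more than the other Th1 libraries, with 50 to 118 reads. Eomes ranged from 0.531 to 1.06 TPM in Th2 libraries and from 0.267 to 0.828 TPM in Th17 libraries, below every Th1 library. Th1 exceeded Th2 by 2.39 ± 0.50 (log2, edgeR adjusted p = 0.00895) and Th17 by 3.35 ± 0.53 (edgeR adjusted p = 0.0126). The second call was lost without the Th17 WT day 3.5 library (edgeR adjusted p = 0.051) or without the Th17 NFATc1/ΔS day 2.5 library (edgeR adjusted p = 0.057). CD8 T and NK cells also express Eomes; in the Th1 libraries their 9 markers summed to 63.2 and 119 CPM (NFATc1/ΔS, day 3.5 and day 2.5) and to 56.4 and 158 CPM (WT, day 3.5 and day 2.5). Of the 6 of these markers that were tested, Th1 had 2 higher and 2 lower against Th2 (among them Klrk1 at 2.05, Prf1 at 1.48 and Gzma at -4.20, edgeR adjusted p = 0.00711, 0.0145 and 0.000272), and 2 higher and 1 lower against Th17 (Klrk1 at 2.29, Prf1 at 2.24 and Cd8b1 at -0.84, edgeR adjusted p = 0.0192, 0.0127 and 0.0391). Their part in the Eomes differences was not tested. Of the 653 Eomes reads 85.3% were unique, and both calls held with unique reads alone.

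Hlx (ENSMUSG00000039377, chromosome 1, 184727140 to 184732619, minus strand) was near the limit of detection everywhere. It had 3 to 52 reads in Th1, 4 to 18 reads in Th2 and 3 to 15 reads in Th17 libraries. Both the highest level, 4.60 TPM in Th1 WT day 2.5, and the lowest, 0.261 TPM in Th1 WT day 3.5, were found in Th1 libraries, so the cultures overlapped. No difference between cultures passed, with 0.36 ± 0.75 for Th1 against Th2 (log2, edgeR adjusted p = 0.739), 0.82 ± 0.73 for Th1 against Th17 (edgeR adjusted p = 0.508) and 0.46 ± 0.75 for Th2 against Th17 (edgeR adjusted p = 0.764). An approximate 95% interval for Th1 against Th17 ran from -0.61 to 2.25, so a fold change of either sign was compatible with these few reads. It used a normal quantile and is too narrow for so few libraries.

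Runx3 (ENSMUSG00000070691, chromosome 4, 135120652 to 135177990, plus strand) was abundant in all cultures, and its order depended on the Th1 day 2.5 libraries. In Th1 libraries it had 148 and 42.1 TPM (NFATc1/ΔS, day 3.5 and day 2.5) and 128 and 91.7 TPM (WT, day 3.5 and day 2.5). In Th2 libraries it had 89.5 and 161 TPM (NFATc1/ΔS, day 3.5 and day 2.5) and 99.0 and 141 TPM (WT, day 3.5 and day 2.5). The corresponding Th17 levels were 96.2 and 160.1 TPM (NFATc1/ΔS) and 97.2 and 163 TPM (WT). All 3 cultures overlapped, and Th2 and Th17 libraries of the same day were close to each other. Over 12 libraries Runx3 differed by -0.36 ± 0.44 between Th1 and Th2 (log2, edgeR adjusted p = 0.55) and by -0.26 ± 0.44 between Th1 and Th17 (edgeR adjusted p = 0.736). Without both Th1 day 2.5 libraries the sign turned, and Runx3 in Th1 exceeded Th2 by 0.50 (edgeR adjusted p = 0.00136) and Th17 by 0.60 (edgeR adjusted p = 0.000871). That fit sets the day 3.5 libraries of Th1 against the other cultures within the day 3.5 blocks.

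Runx1 (ENSMUSG00000022952, chromosome 16, 92601466 to 92826149, minus strand) was lower in Th1 than in Th2. It had 10.5 and 3.74 TPM in Th1 NFATc1/ΔS libraries (day 3.5 and day 2.5) and 9.78 and 7.45 TPM in Th1 WT libraries (day 3.5 and day 2.5), against 14.9 to 16.6 TPM in Th2 and 13.4 to 16.4 TPM in Th17 libraries. Every Th1 library lay below every library of the other cultures, which overlapped each other. Runx1 was lower in Th1 than in Th2 at -1.19 ± 0.29 (log2, edgeR adjusted p = 0.0152). Against Th17 it differed by -1.01 ± 0.29 and did not pass (edgeR adjusted p = 0.0793), but it passed with DESeq2 (adjusted p = 0.00867), without blocks (edgeR adjusted p = 0.0367), without the Th1 NFATc1/ΔS day 2.5 library (edgeR adjusted p = 0.0378) and without both Th1 day 2.5 libraries (edgeR adjusted p = 0.00285). Without those libraries the difference from Th17 was -0.46. Of the 8 members Runx1 had the largest share of intron reads, 12.1% of 10751 reads over the series.

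Gata3 (ENSMUSG00000015619, chromosome 2, 9857078 to 9890034, minus strand) was the member that marked Th2 cultures. Th1 libraries had 58.8 and 45.2 TPM (NFATc1/ΔS, day 3.5 and day 2.5) and 66.8 and 46.6 TPM (WT, day 3.5 and day 2.5). It had 521 and 366 TPM in Th2 NFATc1/ΔS libraries (day 3.5 and day 2.5) and 464 and 333 TPM in Th2 WT libraries (day 3.5 and day 2.5). In Th17 libraries Gata3 stood at 56.0 and 50.4 TPM (NFATc1/ΔS, day 3.5 and day 2.5) and at 44.3 and 49.1 TPM (WT, day 3.5 and day 2.5). The Th2 libraries thus lay far above both other cultures, which overlapped each other. Gata3 was lower in Th1 than in Th2 at -3.13 ± 0.16 (log2, edgeR adjusted p = 1.71e-05) and in Th2 it exceeded Th17 by 3.23 ± 0.16 (edgeR adjusted p = 4.35e-05), the second lowest p of all genes in that comparison. Between Th1 and Th17 it differed by 0.10 ± 0.15 (edgeR adjusted p = 0.689). Gata3 was not low outside Th2: Th1 and Th17 libraries held 838 to 1440 Gata3 reads. Of its 45462 reads, 80.6% were unique, and both calls held with unique reads alone.

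**Figure D1:**
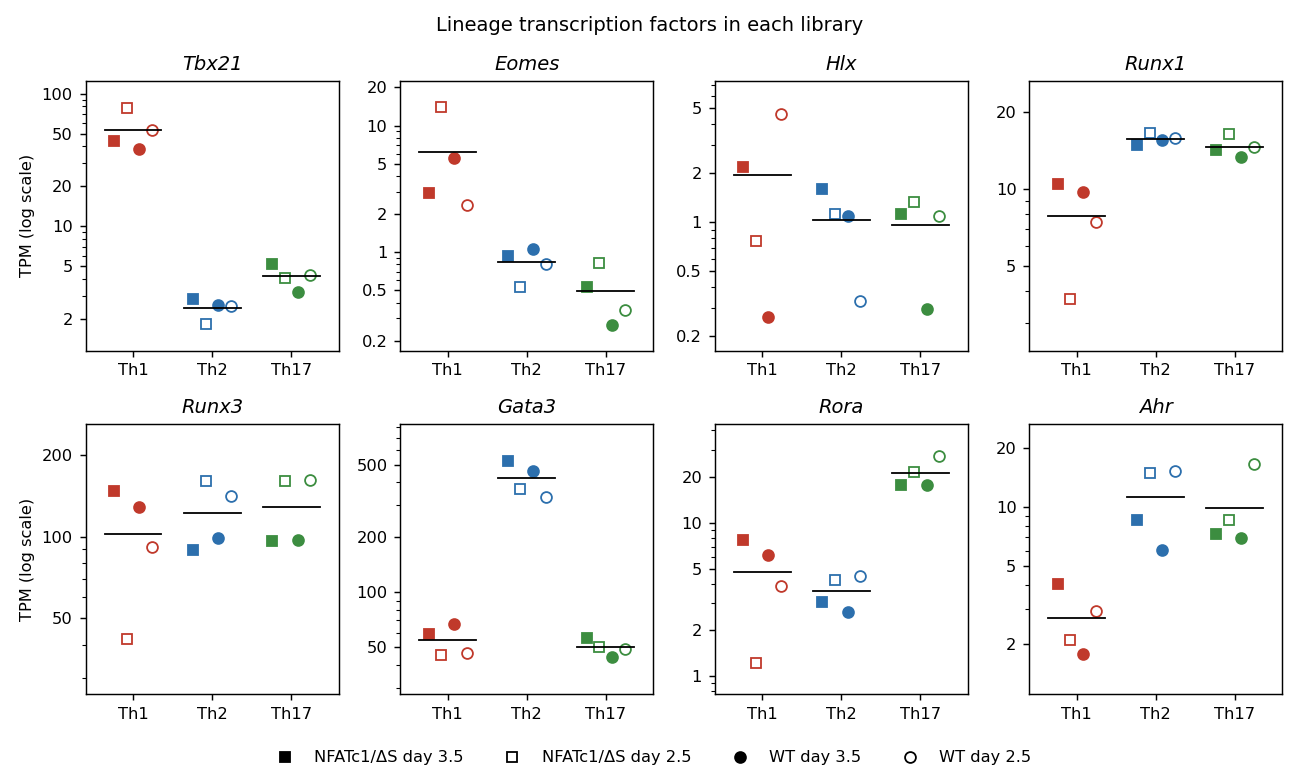
Level of each of the 8 factors in each of the 12 libraries, in TPM on a log axis with its own range per gene, for Th1, Th2 and Th17 cultures; squares are NFATc1/ΔS and circles WT libraries, filled at day 3.5 and open at day 2.5, and the line is the mean of 4 libraries. Tbx21 stands at 38.3 to 77.7 TPM in Th1, Gata3 at 333 to 521 TPM in Th2 and Rora at 17.5 to 27.4 TPM in Th17, each above all libraries of the other cultures, whereas Hlx and Runx3 overlap.

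Rora (ENSMUSG00000032238, chromosome 9, 68653786 to 69388246, plus strand) was the member that marked Th17 cultures. Th1 libraries had 7.74 and 1.23 TPM (NFATc1/ΔS, day 3.5 and day 2.5) and 6.14 and 3.87 TPM (WT, day 3.5 and day 2.5), and Th2 libraries had 3.07 and 4.22 TPM (NFATc1/ΔS) and 2.61 and 4.50 TPM (WT) at the same days. Its Th17 levels were 17.7 and 21.4 TPM in NFATc1/ΔS libraries (day 3.5 and day 2.5) and 17.5 and 27.4 TPM in WT libraries (day 3.5 and day 2.5). No Th17 library overlapped the others, while Th1 and Th2 overlapped. Against Th17 the Rora difference was -2.22 ± 0.50 for Th1 (log2, edgeR adjusted p = 0.042) and for Th2 -2.38 ± 0.49 (edgeR adjusted p = 0.015). The first call was close to the threshold: it was lost with no read filter (edgeR adjusted p = 0.117) and without any single Th2 or Th17 library or either Th1 WT library (edgeR adjusted p between 0.0507 and 0.12), and it held without either Th1 NFATc1/ΔS library (edgeR adjusted p = 0.0198 and 0.0365). The second was lost with no read filter (edgeR adjusted p = 0.0561) and without Th2 WT day 3.5, Th2 WT day 2.5, Th2 NFATc1/ΔS day 3.5, Th17 WT day 2.5 or Th17 NFATc1/ΔS day 2.5 (edgeR adjusted p between 0.0534 and 0.0693). Without both Th1 day 2.5 libraries both held, at -1.27 and -2.40. Rora in Th1 then also exceeded Th2, by 1.13 (edgeR adjusted p = 7.48e-06), against 0.16 ± 0.50 over 12 libraries (edgeR adjusted p = 0.824). That fit holds Th1 at day 3.5 only. At day 2.5 Rora was not higher in Th1, with 1.23 and 3.87 TPM against 4.22 and 4.50 TPM in Th2 (NFATc1/ΔS and WT).

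Ahr (ENSMUSG00000019256, chromosome 12, 35497974 to 35535038, minus strand) was lower in Th1 than in both other cultures. It had 4.03 and 2.09 TPM in Th1 NFATc1/ΔS libraries (day 3.5 and day 2.5) and 1.77 and 2.94 TPM in Th1 WT libraries (day 3.5 and day 2.5). In Th2 libraries it had 8.62 and 15.005 TPM (NFATc1/ΔS, day 3.5 and day 2.5) and 6.06 and 15.3 TPM (WT, day 3.5 and day 2.5), and in Th17 libraries 7.31 and 8.63 TPM (NFATc1/ΔS) and 6.95 and 16.6 TPM (WT) at the same days. All Th1 libraries lay below all others, and Th2 and Th17 overlapped over nearly the whole range. Against Th2 the Ahr difference of Th1 was -2.20 ± 0.31 (log2, edgeR adjusted p = 0.00141), and against Th17 it was -1.84 ± 0.31 (edgeR adjusted p = 0.0159). The second call was lost without Th1 WT day 3.5 (edgeR adjusted p = 0.053), Th17 WT day 3.5 (0.0608) or Th17 WT day 2.5 (0.061). Between Th2 and Th17 it differed by 0.36 ± 0.29 (edgeR adjusted p = 0.5).

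Counted together, 5 of the 8 members differed between Th1 and Th2 (Tbx21 and Eomes higher in Th1; Runx1, Gata3 and Ahr lower), where 28.6% of 12797 genes were called, 14.6% higher and 14.0% lower. Between Th1 and Th17 it was 4 of 8 (Tbx21 and Eomes higher, Rora and Ahr lower), where 4.77% of genes were called, 1.95% higher and 2.83% lower. Between Th2 and Th17, 2 of 8 differed (Gata3 higher, Rora lower), where 12.0% of genes were called, 6.36% higher and 5.67% lower. With the 6 WT libraries alone Eomes (edgeR adjusted p = 0.113) and Runx1 (0.0553) no longer passed between Th1 and Th2, where 695 of all genes passed. With the 6 NFATc1/ΔS libraries alone none of the 5 passed, and 0 of all genes did. Tbx21 and Gata3 came closest there (edgeR adjusted p = 0.0547 for both). Against Th17 no Th1 difference passed within either genotype alone, and 0 of all genes did in either. Gata3 between Th2 and Th17 passed in WT but not in NFATc1/ΔS libraries, where 142 and 0 of all genes passed. The median log2 fold change of the 8 members was -0.10, -0.08 and 0.27 in these 3 comparisons, and that of all genes 0.07, 0.03 and -0.03. In log2 CPM the 4 libraries of each culture did not overlap in 5, 5 and 2 members, where the same held for 32.5, 14.4 and 23.9% of all genes. Without both Th1 day 2.5 libraries 7, 6 and 4 members were called in the 3 comparisons. The calls over all genes also came to more, 6235, 4082 and 5518 against 3656, 611 and 1539 with all 12 libraries. Th1 entered that fit with its day 3.5 libraries alone. Th1 against Th2 was then 3.95 for Tbx21, 2.17 for Eomes, -0.65 for Runx1, -2.96 for Gata3 and -1.60 for Ahr (edgeR adjusted p = 3.58e-08, 0.00193, 0.000146, 2.26e-06 and 0.00291). Th1 against Th17 was 3.35 for Tbx21, 2.98 for Eomes and -1.24 for Ahr (edgeR adjusted p = 1.85e-07, 0.000833 and 0.0152). Th2 against Th17 was 3.24 for Gata3 (edgeR adjusted p = 3.43e-07) and 0.19 for Runx1 (0.0325). The members are known lineage factors, so these counts describe them and say nothing of factors in general.

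**Figure D2:**
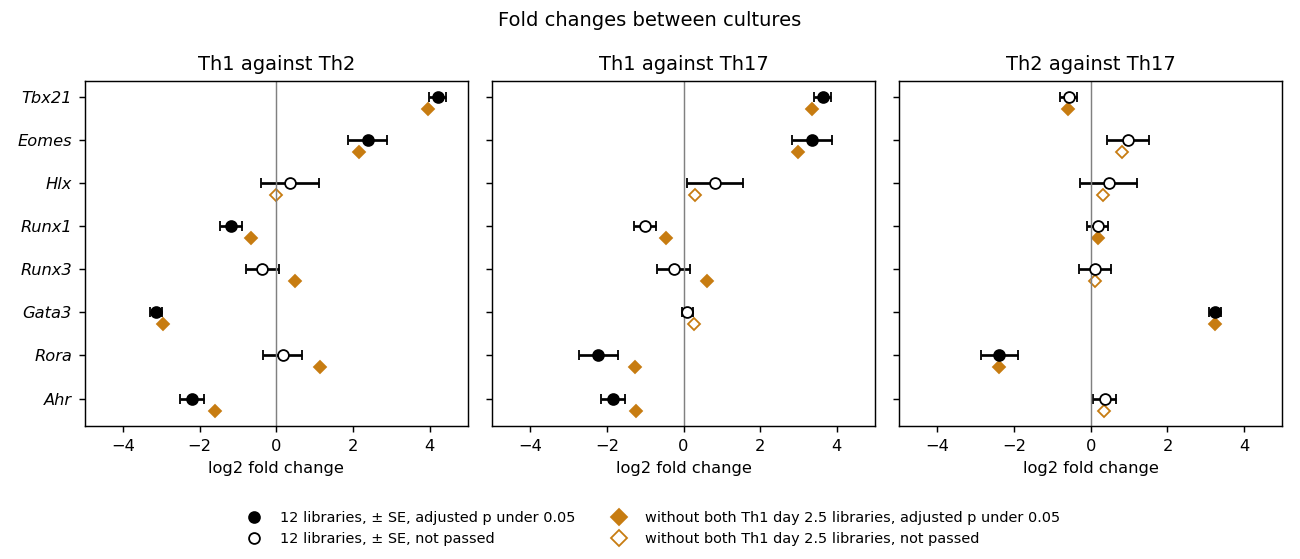
Log2 fold changes of the 8 factors between cultures; black circles give the fit to 12 libraries with its standard error and orange diamonds the fit without both Th1 day 2.5 libraries, filled where the edgeR adjusted p is under 0.05. Tbx21 (4.21 and 3.64) and Gata3 (-3.13 and 3.23) lie far from 0 in either fit, whereas Runx3 changes sign, with 0.50 and 0.60 without the Th1 day 2.5 libraries.

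Within a library the leading factors stood in 1 order in all 4 Th2 libraries and in 1 order in all 4 Th17 libraries, but not in Th1. In every Th2 library Gata3 had the highest TPM, followed by Runx3, Runx1, Ahr, Rora and Tbx21, with Eomes and Hlx lowest. In every Th17 library Runx3 came first, followed by Gata3 and Rora, and Tbx21 stood below Runx1 and Ahr and above Hlx and Eomes. Among Th1 libraries Runx3 was highest in all but NFATc1/ΔS day 2.5, in which Tbx21 was highest, followed by Gata3 and Runx3. Tbx21 exceeded Gata3 in the Th1 day 2.5 libraries, with ratios of 1.72 (NFATc1/ΔS) and 1.14 (WT), but not in those of day 3.5, with ratios of 0.744 (NFATc1/ΔS) and 0.574 (WT). The same ratio lay between 0.0050 and 0.0075 in Th2 and between 0.0725 and 0.0926 in Th17 libraries. The 3 cultures thus separated on these 2 genes without overlap. Rora reached between 0.315 and 0.558 of the Gata3 level in Th17 libraries, against at most 0.132 in Th1 and 0.0135 in Th2 libraries. By mean TPM over the series Gata3 (175 TPM) and Runx3 (118 TPM) ranked above 94.0 and 92.4% of the 24726 genes with reads, and Eomes (2.52 TPM) and Hlx (1.32 TPM) above 56.0 and 52.1%.

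**Figure D3:**
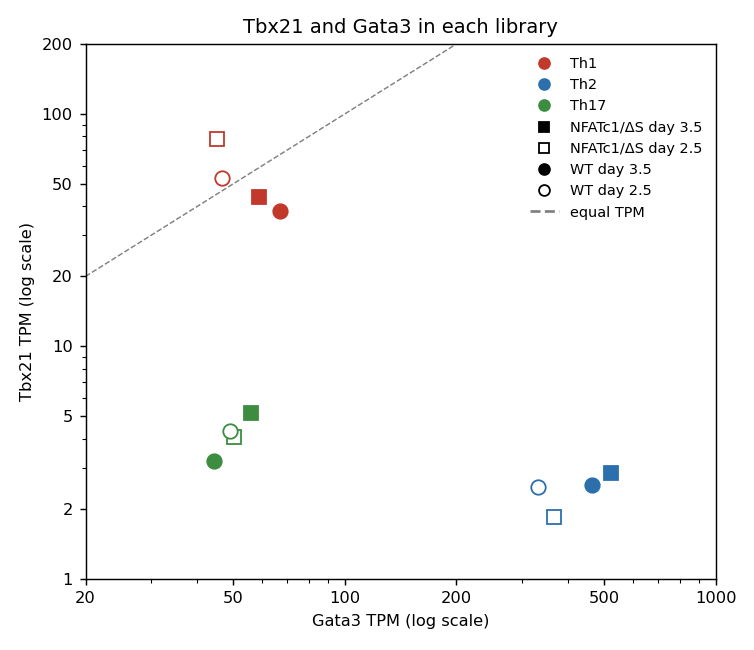
Tbx21 against Gata3 in each of the 12 libraries, in TPM on log axes; colours give the culture, squares NFATc1/ΔS and circles WT, filled at day 3.5 and open at day 2.5, and the dashed line marks equal levels. Th1 libraries lie near the line (ratio 0.574 to 1.72), Th17 libraries below it at a like Gata3 level (0.0725 to 0.0926) and Th2 libraries far to the right (0.0050 to 0.0075).

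Day changed 4 of the 8 members in the Th2 and Th17 cultures. This comparison of the 4 Th2 and Th17 pairs was added after values had been seen, since over all 6 pairs 0 of 8 members and 0.0% of 12329 genes passed with edgeR; there 1 member (Ahr) and 1333 genes had an unadjusted p under 0.05, DESeq2 called 0 members and 143 genes, and limma-voom 0 members and 0 genes. Runx3, Rora, Ahr and Runx1 were all lower at day 3.5 than at day 2.5, where 40.5% of 12415 genes were called in either direction and 19.7% were lower, so that a call in itself was common. The median log2 fold change was -0.22 over the 8 members and 0.03 over all genes.

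Runx3 fell to 89.5 and 99.0 TPM at day 3.5 in Th2 libraries (NFATc1/ΔS and WT), against 161 and 141 TPM at day 2.5, and to 96.2 and 97.2 TPM in Th17 libraries, against 160.1 and 163 TPM. No day 3.5 library of these cultures reached a day 2.5 library. The log2 fold change over the 4 pairs was -0.91 ± 0.08 (edgeR adjusted p = 2.89e-05), and it was lower at day 3.5 in 4 of 4 pairs. Rora fell by 0.72 ± 0.08 (edgeR adjusted p = 7.36e-05), in 4 of 4 pairs, with pair differences from -0.91 in Th2 WT to -0.56 in Th17 NFATc1/ΔS. Ahr fell by 1.06 ± 0.14 (edgeR adjusted p = 0.000424), in 4 of 4 pairs, with pair differences from -1.39 in Th2 WT to -0.51 in Th17 NFATc1/ΔS. Runx1 fell by 0.33 ± 0.07 (edgeR adjusted p = 0.00431), in 4 of 4 pairs, the smallest of the 4 changes. Without blocks Runx1 (edgeR adjusted p = 0.0635) and Rora (edgeR adjusted p = 0.617) no longer passed. Leaving out each of the 8 libraries in turn kept the count at 4, where leaving out either library of a pair removes that pair. Gata3 differed by 0.09 ± 0.10 (edgeR adjusted p = 0.483), with both Th2 pairs higher at day 3.5 (0.28 in NFATc1/ΔS and 0.36 in WT) and both Th17 pairs lower (-0.10 and -0.24). Tbx21, Eomes and Hlx did not pass (edgeR adjusted p = 0.746, 0.804 and 0.865). Genes on the marker lists of other cells moved over the same pairs. Of the tested CD8 T and NK cell markers 4 of 6 were lower at day 3.5, among them Prf1 at -0.71 and Cd8a at -0.53 (edgeR adjusted p = 0.00194 and 0.0036). Of the innate lymphoid markers 2 of 4 were higher, among them Il2ra at 0.58, which T cells also express. A further 1, Kit, was lower at -2.02 (edgeR adjusted p = 1.6e-05). Of the B cell markers 1 of 7 was lower, and of the dendritic cell markers 2 of 5 were higher. Their part in the day changes was not tested.

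In the Th1 cultures Runx3, Rora and Runx1 had higher values at day 3.5 than at day 2.5. Runx3 had 148 and 128 TPM at day 3.5 (NFATc1/ΔS and WT), against 42.1 and 91.7 TPM at day 2.5. Rora had 7.74 and 6.14 TPM at day 3.5, against 1.23 and 3.87 TPM at day 2.5. Runx1 had 10.5 and 9.78 TPM at day 3.5, against 3.74 and 7.45 TPM at day 2.5. All 3 thus lay above their day 2.5 values in both Th1 pairs, and further above in the NFATc1/ΔS pair. Ahr had 4.03 and 1.77 TPM at day 3.5 (NFATc1/ΔS and WT), against 2.09 and 2.94 TPM at day 2.5, so its pairs went opposite ways. None passed in a model of all 12 libraries with day effects per culture: Rora differed by 1.56 ± 0.38 (edgeR adjusted p = 0.0722), Runx1 by 0.89 ± 0.22 (0.0738), Runx3 by 1.11 ± 0.29 (0.0836) and Gata3 by 0.46 ± 0.12 (0.0857), where 5.36% of genes were called, 2.69% higher and 2.67% lower. Tbx21 went the other way, at -0.60 ± 0.20 (0.131). Counts of 5 members with an unadjusted p under 0.05 in Th1, 3 in Th2 and 2 in Th17 stood beside 0 members called in each culture by edgeR, and in Th2 and Th17 0.0% of genes were called by this model, with 2349 and 2737 genes at an unadjusted p under 0.05, against 3409 in Th1.

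The test of equal day effects in the 3 cultures called 0 of 8 members with edgeR, where 5.01% of genes were called. Runx3 came closest (edgeR adjusted p = 0.0542), then Rora (0.0698), Runx1 (0.0833) and Gata3 (0.122). These 4 had an unadjusted p under 0.05, as did 3654 of 12797 genes. With unique reads 1 member passed. It called 6 members without the Th1 NFATc1/ΔS library of either day, 8 without Th1 WT day 3.5 and 7 without Th1 WT day 2.5, where the same fits called 3239 (without NFATc1/ΔS day 2.5), 3236 (without NFATc1/ΔS day 3.5), 6496 (without WT day 3.5) and 6492 (without WT day 2.5) of all genes against 641 with 12 libraries, but Th1 was then left with no residual spread of its own and was assumed to vary like the other cultures. Both Th1 day 2.5 libraries are those that stood apart, so day and library cannot be told apart in Th1.

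**Figure D4:**
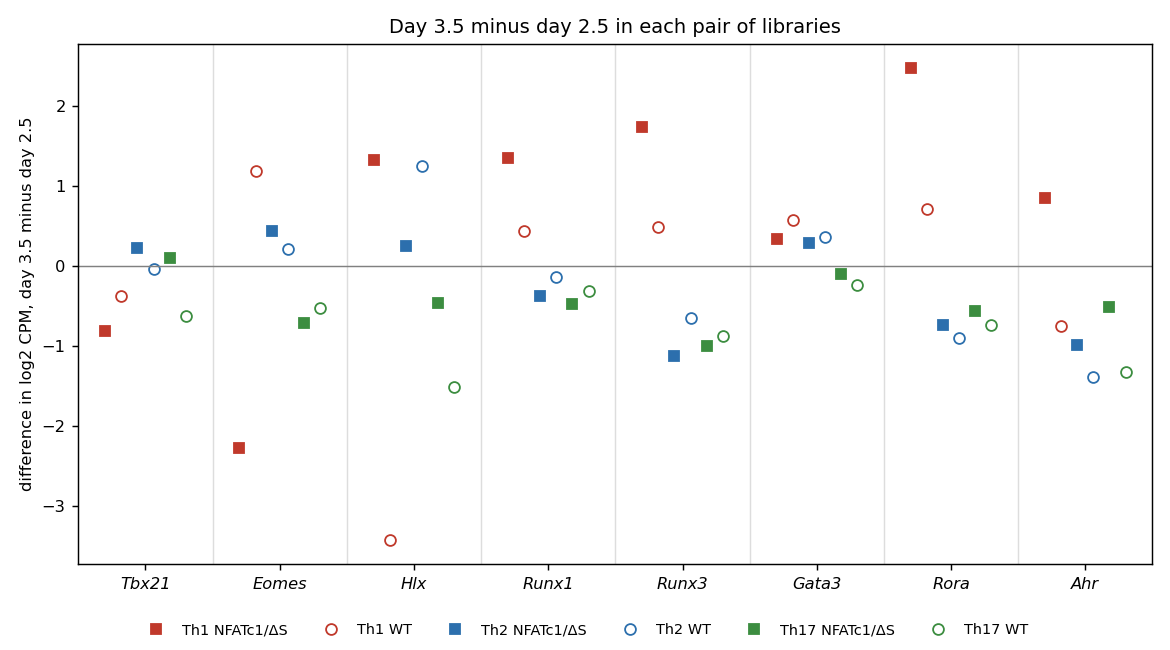
Difference in log2 CPM, day 3.5 minus day 2.5, of the 8 factors in each of the 6 pairs; colours give the culture, filled squares the NFATc1/ΔS and open circles the WT pair. Runx3, Rora and Runx1 lie below 0 in all 4 Th2 and Th17 pairs and above 0 in both Th1 pairs, with the largest Th1 differences (1.74, 2.48 and 1.35) in NFATc1/ΔS.

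The NFATc1/ΔS genotype changed none of the 8 members past the threshold. Over 6 pairs 0 of 8 members and 0.0% of 12329 genes were called by edgeR, with 0 members and 716 genes at an unadjusted p under 0.05; DESeq2 called 0 members and 21 genes, and limma-voom 0 members and 1 gene. The fit of the 4 Th2 and Th17 pairs was added because the library labelled Th1 WT day 2.5 was already known to stand apart. In it 0 of 8 members were called by edgeR, by DESeq2 and by limma-voom. Of 12415 genes 2.13% were called by edgeR, 0.749% higher and 1.38% lower. Hlx and Gata3 had an unadjusted p under 0.05, as did 1750 of all genes. The median log2 fold change of the members was 0.02 over 6 pairs and 0.08 over 4 pairs, and that of all genes 0.00 in both. Genes on the marker lists of other cells moved over the same 4 pairs. Of those tested, 1 of 6 CD8 T and NK cell markers was lower in NFATc1/ΔS (Gzma at -1.48, edgeR adjusted p = 0.0391). So were 1 of 7 B cell markers (Ebf1 at -0.90, edgeR adjusted p = 0.00206) and 3 of 4 innate lymphoid markers. The latter were Kit at -0.78, Il7r at -0.38 and Il2ra at -0.31 (edgeR adjusted p = 0.0374, 0.0219 and 0.0492). T cells also express Il7r and Il2ra. The 9 CD8 T and NK cell markers summed to 83.6 and 109 CPM in Th2 NFATc1/ΔS libraries (day 3.5 and day 2.5), against 234 and 243 CPM in Th2 WT libraries. Of these markers Gzma alone ran from 49.9 to 183 CPM over the Th2 libraries. Cd8b1 ran from 18.0 to 22.5 CPM there and Cd8a from 5.27 to 8.22 CPM. The part of other cells in the genotype values was not tested. Within the Th1, Th2 and Th17 cultures 0 of 8 members passed with edgeR in each, with 0 members and 666, 303 and 404 genes at an unadjusted p under 0.05, and 0.0% of 12797 genes called.

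Gata3 had the tightest estimates. It differed by 0.06 ± 0.08 over 6 pairs (log2, edgeR adjusted p = 0.858) and by 0.15 ± 0.06 over the 4 Th2 and Th17 pairs (edgeR adjusted p = 0.312). It was higher in NFATc1/ΔS in all 4 of those pairs, by 0.05 and 0.12 in Th2 (day 3.5 and day 2.5) and by 0.29 and 0.15 in Th17 (day 3.5 and day 2.5). Tbx21 differed by 0.21 ± 0.14 over 6 pairs (edgeR adjusted p = 0.823), with 3 pairs higher and 3 lower. Rora differed by -0.21 ± 0.20 over 6 pairs (edgeR adjusted p = 0.828) and by -0.09 ± 0.07 over 4 pairs (edgeR adjusted p = 0.609). Runx3 differed by -0.04 ± 0.07 over 4 pairs (edgeR adjusted p = 0.884) and Runx1 by 0.05 ± 0.07 (edgeR adjusted p = 0.832). For these members the standard errors over 4 pairs were below 0.1, whereas Ahr (-0.16 ± 0.21), Tbx21 (0.11 ± 0.21), Eomes (0.16 ± 0.35) and Hlx (0.92 ± 0.36, edgeR adjusted p = 0.238) were less well determined. Hlx was higher in NFATc1/ΔS in all 4 Th2 and Th17 pairs, by 0.35 to 1.41, but each library held at most 18 reads.

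For Eomes, Rora, Runx3 and Runx1 the Th1 day 2.5 pair held the widest genotype difference. Eomes had 300 reads in NFATc1/ΔS, against 50 in WT, a difference of 2.53 on the log2 scale, while at day 3.5 it had 70 reads in NFATc1/ΔS, against 118 in WT (-0.95). Rora had 90 reads in NFATc1/ΔS at day 2.5, against 254 in WT (-1.49), and 597 reads at day 3.5, against 421 in WT (0.28). Runx3 had 1145 reads in NFATc1/ΔS at day 2.5, against 2439 in WT (-1.10), and 4458 reads at day 3.5, against 3446 in WT (0.15). These members thus changed sign between the days in Th1, and each value is a single pair with no replicate check. Equal genotype effects in the 3 cultures were tested for all 8, and 0 members and 0.0% of genes were called by edgeR, with 0 members and 301 genes at an unadjusted p under 0.05. Genotype by day was also tested, with 0 of 8 members and 0.0% of 12329 genes called by edgeR and 0 members and 307 genes at an unadjusted p under 0.05; its largest values were those of Hlx (2.00 ± 1.23), Eomes (-1.62 ± 0.84) and Ahr (0.99 ± 0.49), all at an adjusted p of 0.985.

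**Figure D5:**
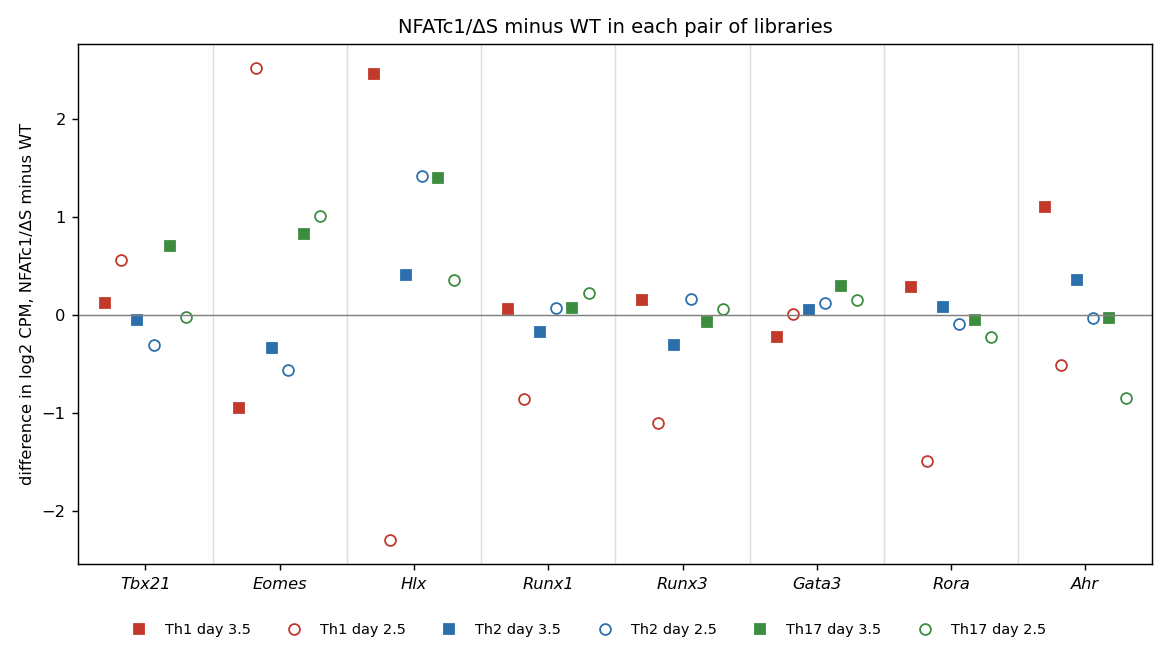
Difference in log2 CPM, NFATc1/ΔS minus WT, of the 8 factors in each of the 6 pairs; colours give the culture, filled squares the day 3.5 and open circles the day 2.5 pair. Gata3 lies between -0.23 and 0.29 in every pair, and the points farthest from 0 are those of Eomes (2.53) and Hlx (-2.30 and 2.46) in Th1.

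Genes of the same pathways were counted from lists that were chosen with earlier results known. Set against Th2, Th1 cultures had 13 of 22 tested Th1 genes higher and 2 lower (median 1.49, all genes 0.07), with Fasl, a death ligand, at 3.86 ± 0.16 (edgeR adjusted p = 9.09e-06), Il12rb2, an IL-12 receptor chain, at 2.78 ± 0.22 (8.98e-05) and Stat4, its signal transducer, at 1.61 ± 0.14 (0.000124). Against Th17, 9 of 22 were higher and 0 lower (median 0.68, all genes 0.03). Of 17 tested Th2 genes, Th1 had 16 lower against Th2 (median -2.77), and Th2 had 15 higher against Th17 (median 2.21), with Epas1 at 4.91 ± 0.47 (edgeR adjusted p = 0.00044), Il4ra, the IL-4 receptor, at 1.41 ± 0.14 (0.000572) and Bhlhe41 at 4.59 ± 0.51 (0.000856). Against Th17, Th1 had 7 of 17 tested Th17 genes lower and 0 higher (median -0.62), with the chemokine receptor Ccr6 at -3.43 ± 0.32 (edgeR adjusted p = 0.00194), and against Th2 it had 9 lower and 2 higher (median -0.81), with Batf at -2.99 ± 0.16 (1.76e-05). Of the Th2 genes 1 of 17, Ccr4 at -1.60 ± 0.22 (edgeR adjusted p = 0.0074), was lower in Th1 than in Th17, and of the Th1 genes 2 of 22 were higher and 5 lower in Th2 than in Th17 (median -0.11). Of the 17 tested Th17 genes, Th2 had 4 higher and 4 lower against Th17 (median 0.18). Among them were Batf at 2.27 ± 0.15 (edgeR adjusted p = 9.15e-05) and Ccr6 at -4.86 ± 0.36 (0.000117).

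Genes that act with Ahr, Runx and Gata factors were counted in the same way. Of the 6 tested genes of the Ahr battery (its partners, chaperones and targets) none passed between cultures, with the smallest edgeR adjusted p at 0.104 (Ptges3, Th1 against Th2). Tiparp, a direct Ahr target, differed by -0.997 ± 0.44 between Th1 and Th2 (edgeR adjusted p = 0.115). Over the 4 Th2 and Th17 day pairs 4 of 5 were lower and 1 higher at day 3.5, where 19.7% of all genes were lower and 20.8% higher, with Tiparp at -0.79 ± 0.10 (edgeR adjusted p = 0.000163), the chaperone Hsp90ab1 at -0.43 ± 0.07 (0.000866) and the co-chaperone Ptges3 at 0.26 ± 0.07 (0.0138). Of 10 tested partners of Runx and Gata factors, Th1 had 3 higher and 3 lower against Th2, with the remaining Runx gene, Runx2, at 1.35 ± 0.14 (edgeR adjusted p = 0.000318) and Zfpm1, which encodes the Gata cofactor FOG-1, at 0.78 ± 0.14 (0.00379). Runx2 in Th2 was also below Th17, at -1.18 ± 0.14 (edgeR adjusted p = 0.00106), so it did not share the low Th1 level of Runx1. Of 15 other T cell fate factors, Th1 had 4 higher and 4 lower against Th2 and 1 higher and 3 lower against Th17, and Th2 had 4 higher and 5 lower against Th17. Among them Prdm1, which encodes Blimp-1, exceeded Th17 in Th1 by 3.22 ± 0.25 (edgeR adjusted p = 0.000954), and Id2, an inhibitor of E proteins, exceeded Th17 in Th2 by 2.57 ± 0.21 (0.000207).

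For genotype over the 4 Th2 and Th17 pairs, the lists held calls and the members did not, where 1.38% of all genes were lower and 0.749% higher. There 4 of 17 Th2 genes were lower in NFATc1/ΔS and 0 higher, with Maf, a factor that activates Il4, at -0.98 ± 0.07 (edgeR adjusted p = 9.78e-07) and the cytokine Il13 at -0.84 ± 0.09 (0.000167). Of 17 Th17 genes 3 were lower and 0 higher, with Il17f at -1.65 ± 0.22 (edgeR adjusted p = 0.00604), Il17a at -1.13 ± 0.21 (0.0137) and Batf at -0.27 ± 0.06 (0.0291). Of 21 Th1 genes 1 was lower, Il12rb2 at -0.54 ± 0.07 (edgeR adjusted p = 0.000276), and of 15 other fate factors 1 was lower, Id2 at -0.34 ± 0.06 (0.00698). Among the 5 tested Ahr battery genes the smallest edgeR adjusted p was 0.628 (Ptges3), and among the 10 Runx and Gata partners 0.143 (Zfpm1). Over 6 pairs, and within each culture, 0 genes of any list passed by genotype with edgeR, where 0.0% of all genes did. The difference between a called cytokine and an uncalled factor was itself not tested.

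The genes whose levels followed each member most closely were found by Pearson correlation of log2 CPM over the 12 libraries, which share culture, depth and the Th1 day 2.5 libraries, so the values are a description. Tbx21 was followed by Ifng (0.96), Bcl2a1b (0.96) and Lrrc8c (0.95), and Eomes by Atg5 (0.95), Dera (0.95) and Serpina3g (0.94). Gata3 was followed by Sema4b (0.99), Cdc42se1 (0.99) and Epas1 (0.98). Rora had Cds2 (0.96), Asap2 (0.96) and Fes (0.95), and Ahr had Cd5 (0.97), Pfkfb2 (0.96) and Gpr183 (0.96). For Runx1 they were Rragd (0.98), Rara (0.98) and Smad3 (0.97), and for Runx3 Zfas1 (0.98), Cdc42ep2 (0.98) and Ppme1 (0.98). Hlx, with its few reads, had no gene above 0.79 (Xkr8, then Kbtbd3 at 0.78 and Pcyt2 at 0.75). Among the members themselves Tbx21 ran with Eomes (0.87) and opposite to Runx1 (-0.89) and Ahr (-0.87), and Runx1 ran with Ahr (0.84) and Runx3 (0.77). Bcl2a1b belongs to a family of near-identical copies, so its reads may be shared among them.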

How the data were processed

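Counts per gene came from the tables the authors deposited, 1 per library with 41457 Ensembl genes, per the file headers. Gene reads are exon plus intron reads and include reads that also map elsewhere. The build is GRCm38, per the submitters' processing notes; the sources used here give no aligner, counter or strandedness, so antisense reads cannot be told apart. TPM was computed here from the deposited exon reads and exon lengths, and CPM with TMM factors. RPKM and TPM columns of the tables were left aside.

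Tests used edgeR 4.0.16 in R 4.3.3: TMM, filterByExpr (minimum count 10, minimum total 15), quasi-likelihood fits in robust mode, and p-values adjusted by Benjamini-Hochberg over all genes tested, with a threshold of 0.05. The standard error is the absolute log2 fold change over the square root of F. Comparisons of cultures held the 4 combinations of genotype and day as blocks, those of genotype the 6 combinations of culture and day, and those of day the 6 combinations of culture and genotype. Effects within cultures and their equality came from 1 model of 12 libraries with 3 residual degrees of freedom. Log2 CPM used a prior count of 2. Alternatives were DESeq2 1.42.0, limma-voom (limma 3.58.1), RLE size factors, other read filters, no robust fit, unique or exon reads, no blocks and fewer libraries. The edgeR code was run on simulated counts with less spread than the fits to all 12 libraries showed, and with no block effects. That run therefore does not give error rates for these data. Tables and figures used Python 3.11.15, pandas 2.3.3, numpy 2.4.6 and matplotlib 3.10.9.

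The members, gene lists and markers were chosen with earlier results of these data known, and the comparison of days over the 4 Th2 and Th17 pairs was added after its values were seen. Named genes are the 8 members, the 3 genes with the highest correlation to each (mean log2 CPM of at least 1, no clone, model, segment or pseudogene name), and up to 3 genes of smallest p per list and comparison; cytokines and Cd4 named as label checks, and marker genes, were chosen apart from this rule. Promoters were the 250 bases before RefSeq starts on GRCm38.p6. Depth ran from 13417121 to 17774400 reads, without molecular identifiers, so counting error alone understates the error. Marker sums not given elsewhere ran from 32.1 to 71.9 CPM in Th1, 124 to 177 CPM in Th2 and 76.2 to 90.2 CPM in Th17 libraries for 8 dendritic cell markers (Clec9a at 0 throughout, Siglech at 0 in Th2 and Th17), from 1.12 to 5.61, 2.23 to 3.82 and 1.12 to 3.32 CPM for 8 myeloid markers (S100a9 at 0 in Th1 and Th2, S100a8 at 0 in Th1 and Th17, Adgre1 at 0 in Th1), from 4.25 to 29.1, 1.11 to 3.44 and 5.22 to 37.0 CPM for 7 mast cell and basophil markers (Mcpt4 at 0 in Th1 and Th2, Ms4a2 at 0 in Th2), and from 1311 to 1675, 1567 to 2952 and 1003 to 1768 CPM for 6 innate lymphoid markers, of which T cells also express Il2ra and Il7r.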

Additional observations from a re-analysis of the deposited data

Results flagged for a closer look

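Tbx21 in the Th17 libraries held 1 library apart from the others. The Th17 WT day 3.5 library had 36 reads, or 2.52 CPM, and its gap to the nearest of the other Th17 libraries was 0.853 of the range of all 4 on the log2 CPM scale, above Dixon's 95% critical value for 4 samples. On linear scales it was below that value, at 0.821 of the range in CPM and 0.432 in TPM. Of the 24 groups of 4 libraries examined in log2 CPM (8 factors in 3 cultures) this was the only one past that value, and chance gives about 1 in 20.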

How the results depend on the processing

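Of the 332 alternative values of the 15 member differences that passed, 290 stayed past the threshold, 42 lost it and none changed sign. These values are not independent checks. In the day fits, leaving out either library of a pair removes that pair, so such fits nearly repeat each other. Members called between Th1 and Th2 came to 3 in WT libraries alone and 0 in NFATc1/ΔS libraries alone. Between Th1 and Th17 they came to 0 and 0, and between Th2 and Th17 to 1 and 0, in fits of 6 libraries. Over all genes those fits called 695 and 0, then 0 and 0, then 142 and 0. Between Th2 and Th17 the count was 1 with no read filter and 4 without both Th1 day 2.5 libraries. For day over 6 pairs it was 4 without those libraries or with Th2 and Th17 alone. Both settings rest on the same 4 Th2 and Th17 pairs, since each Th1 block then holds 1 library, so they are not separate checks. Over the 4 Th2 and Th17 pairs the count was 2 without blocks. Equal day effects gave 1 with unique reads. Leaving out each library in turn gave 1 to 5 for Th1 against Th17, 1 to 3 for Th2 against Th17, 0 to 1 for day over 6 pairs, 0 to 5 for equal genotype effects, 0 to 8 for equal day effects, and, summed over the 3 cultures, 0 to 6 for genotype and 0 to 15 for day within cultures. The high values came without a Th1 library. Only in the model with effects per culture did this leave Th1 with no residual spread of its own. Leaving out a Th2 or Th17 library did the same to that culture. The causes of the moved counts were not tested. The calls over all genes moved as well when each library was left out in turn. They came to 166 to 928 for Th1 against Th17, 719 to 2954 for Th2 against Th17 and 0 to 214 for day over 6 pairs. For equal genotype effects they came to 0 to 3615 and for equal day effects to 54 to 6496. The member counts of these comparisons are thus not particular to the members. For effects within cultures the calls over all genes were not counted in these fits. The member counts summed over the cultures therefore have nothing to be set beside.

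Differences that did not pass changed sign in places. Without both Th1 day 2.5 libraries, Th1 against Th2 was -0.0137 for Hlx and 0.50 for Runx3, and Th1 against Th17 was 0.60 for Runx3. Genotype over 6 pairs was then -0.27 for Eomes, 0.0478 for Runx1, 0.0003 for Runx3 and 0.0063 for Ahr. Day over 6 pairs was then -0.33 for Runx1. The fit of Th2 and Th17 alone, which rests on the same day pairs, also gave -0.33. In NFATc1/ΔS libraries alone, Th1 against Th2 was -0.10 for Hlx and -0.063 for Rora, and Th1 against Th17 was -0.0862 for Gata3. Ahr by genotype was 0.0021 with exon reads; without blocks Runx3 by genotype over 4 pairs was 0.0052 and Runx1 by day over 6 pairs -0.12; Eomes by day over 4 pairs was 0.16 with unique reads. Leaving out each library gave, for Th1 against Th2, -0.41 to 0.92 (Hlx), -0.79 to 0.0863 (Runx3) and -0.31 to 0.65 (Rora); for Th1 against Th17, -0.11 to 1.26 (Hlx), -0.69 to 0.18 (Runx3) and -0.0488 to 0.20 (Gata3); and for Th2 against Th17, -0.11 to 1.07 (Hlx) and -0.18 to 0.38 (Runx3). By genotype over 6 pairs it gave -0.32 to 0.93 (Eomes), -0.16 to 0.0481 (Runx1), -0.25 to 0.0006 (Runx3) and -0.21 to 0.17 (Ahr), and over 4 pairs -0.11 to 0.23 (Tbx21), -0.13 to 0.46 (Eomes), -0.013 to 0.12 (Runx1), -0.11 to 0.0514 (Runx3) and -0.31 to 0.10 (Ahr). By day over 6 pairs it gave -0.72 to 0.27 (Eomes), -0.85 to 0.24 (Hlx), -0.18 to 0.18 (Runx1) and -0.46 to 0.14 (Rora), and over 4 pairs -0.19 to 0.0832 (Tbx21), -0.34 to 0.14 (Eomes), -0.51 to 0.25 (Hlx) and -0.0039 to 0.18 (Gata3).

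Over all genes, Th1 against Th2 called 3656 genes, 6235 without both Th1 day 2.5 libraries, 695 in WT alone and 0 in NFATc1/ΔS alone. Th1 against Th17 called 611, 1651 with DESeq2, 4082 without both and 0 in either genotype alone. Th2 against Th17 called 1539, 5518 without both, 142 in WT alone and 0 in NFATc1/ΔS alone. Genotype called 0 over 6 pairs, 21 with DESeq2, 1 with limma-voom, 3 with no read filter and 23 without both, and 264 over 4 pairs, 630 with no read filter and 1 without blocks. Day called 0 over 6 pairs, 143 with DESeq2, 6 with no read filter, 5007 without both and 5022 over the 4 Th2 and Th17 pairs, and 1961 without blocks. The day fit without both rests on those same 4 pairs. The labels give no replicate numbers, so the pairs are matched by culture, genotype and day only. Depth limits Hlx (3 to 52 reads) and, outside Th1, Eomes (5 to 23 reads).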
